A study of Mus musculus with 14 samples.

Results

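Kmt2a encodes MLL (also written MLL1), the methyltransferase that marks histone H3 at active promoters and that is cut and rearranged in some leukemias. Gene expression in mouse lung carrying the Kmt2a knockout (Kmt2a KO) was compared with that in wild-type lung of the same experiment (WT). The comparison holds 6 of the 14 lung RNA libraries of the study, 3 of Kmt2a KO and 3 of WT, and 3956 genes, all genes of the deposited table of this comparison. A positive log2 ratio means a higher mean in Kmt2a KO. The labels give the tissue and the genotype. Strain, age, sex, the allele and any Cre driver are not given in the sources used here, so neither the cells that lost Kmt2a nor the time of loss is known. Nothing says whether the 3 libraries of a group came from separate animals, and p-values then measure only the spread between libraries. The extraction text of the labels names macrophages of the peritoneal cavity, while tissue and source are lung. The epithelial genes Scgb1a1, which encodes the main secreted protein of airway club cells, and Sftpa1, a surfactant protein gene of alveolar type 2 cells, had means of 612534 and 141717 normalized counts in Kmt2a KO, against 1958770 and 26526 in WT, in the authors' deposited table, among the 10 most abundant genes of the table. No marker of peritoneal macrophages was tested here.

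MLL works in a large complex with menin, WDR5, RBBP5 and ASH2L, in which methyl groups are added to histone H3 and transcription of the marked gene is kept on. Its best known targets are Hox genes, the transcription factor genes that give cells their position along the body axis, and Meis1, whose product binds DNA together with Hox proteins. In the lung, Hox genes, above all Hoxa5, are active in the mesenchyme around the airways and take part in branching and in the formation of alveoli.

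Kmt2a itself has no row in the deposited table, which holds only genes with an adjusted p below 0.05. Whether it was tested and did not pass, or was not tested, cannot be told apart, so the deleted gene gives no check of the genotypes. No gene of chromosome Y and none of the 11 genes of the sex chromosome list had a row. The deposited means carry 15 digits, so the whole reads behind them could be recovered for each library of a group. They are called library a, b and c within each group and cannot be tied to single labels. Reads in the resolved genes numbered 4639864, 4289448 and 4284917 in Kmt2a KO libraries a to c, and 3668302, 3349876 and 2986231 in WT libraries a to c. Across the 3822 genes with recovered reads in both groups, log2 values correlated at 0.979 to 0.983 between Kmt2a KO libraries and at 0.959 to 0.964 between WT libraries, against 0.798 to 0.848 between libraries of different groups, in genes that had been chosen for that difference. The median SD of a gene over 3 libraries was 0.196 on the log2 scale in Kmt2a KO and 0.258 in WT. WT library c stood more than 2-fold from the other WT libraries, themselves close to each other, in 258 genes, against 106 for WT library a, 152 for WT library b and 81 to 82 for each Kmt2a KO library.

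Of 21574 genes that the authors adjusted their p over, 3956 (18.3%) passed at 0.05. In Kmt2a KO lung, 1999 of them (9.27% of those tested) were higher and 1957 (9.07%) were lower. The number tested was read from the deposited p and adjusted p, of which 3202 pairs give a number within 0.01 of it. The 2 directions were alike in number but not in shape. Genes that were lower changed more, with a median log2 ratio of −1.14 against 0.90 for those that were higher, and were less abundant, with a median larger mean of 367 against 836 normalized counts. A change of at least 2-fold was found in 910 of the higher genes (45.5%) and in 1090 of the lower genes (55.7%), and one of at least 4-fold in 367 and 474. Among genes with a larger mean of at least 100, 566 were at least 2-fold higher and 582 at least 2-fold lower. The part of level and of the selection by adjusted p in the difference of shape was not tested. Libraries of Kmt2a KO and WT did not overlap in 3713 of the 3822 genes with recovered reads (97.1%), which were selected on the same libraries, so that a gene without overlap is the rule here and counts for little by itself.

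**Figure D1:**
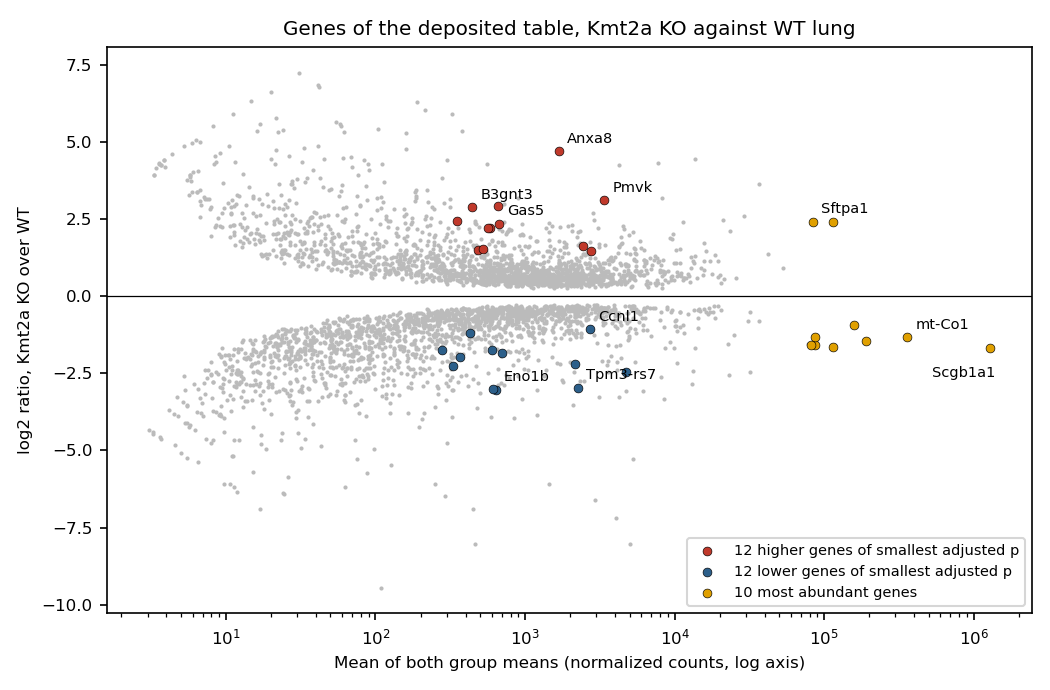
Each point is a gene of the deposited table, with the mean of the Kmt2a KO and WT group means on the x axis (normalized counts, log axis) and the log2 ratio of Kmt2a KO over WT on the y axis; genes listed at 0 in a group are left out. Red and blue points are the 12 higher and the 12 lower genes of smallest adjusted p among those with both means of at least 100 and recovered reads, yellow points the 10 most abundant genes, of which Sftpa1 and Lyz2 lie above 0 and the other 8 below.

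Among genes with both group means of at least 100 and recovered reads, those that rose and those that fell with the smallest adjusted p come first. Those that rose were enzymes of sugar chains and sterols, surface proteins and a long noncoding RNA. B3gnt3, which extends sugar chains on glycoproteins, had 849.6, 703 and 797 normalized counts in Kmt2a KO libraries, against 118, 100.3 and 100.4 in WT libraries, a log2 ratio of 2.88. Gas5, a noncoding RNA that hosts small nucleolar RNAs and builds up when cells stop growing, had 1160.0, 1145 and 1057, against 192, 230.4 and 236 in WT. Every Kmt2a KO library thus stood at more than 4 times every WT library in both genes. Timp4, an inhibitor of matrix-cutting proteases, had 887, 898 and 1077 in Kmt2a KO libraries and 211, 192 and 218 in WT libraries. Acp1, a small phosphatase of tyrosine residues, had 955, 976 and 861 in Kmt2a KO libraries and 172, 235 and 199.6 in WT libraries. The adjusted p in the authors' deposited table was 5.72e-53 for B3gnt3, 6.61e-48 for Gas5, 2.67e-36 for Timp4 and 1.9e-31 for Acp1.

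Other genes in this group make precursors of cholesterol. Pmvk, a kinase of the mevalonate pathway, had 5591, 5171 and 7472 normalized counts in Kmt2a KO libraries and 776, 820.0 and 529 in WT libraries. Idi1, an isomerase that acts later in the same pathway, had 737, 714 and 702 against 254, 246 and 272. The log2 ratios were 3.10 for Pmvk and 1.48 for Idi1. Pmvk varied more, and its lowest Kmt2a KO library still stood far above its highest WT library. Asah1, the acid ceramidase of lysosomes, had 3534, 3731 and 3768 in Kmt2a KO libraries and 1279.8, 1239 and 1052 in WT libraries.

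The others were mostly proteins of membranes. Adora2b, an adenosine receptor, had 1371, 1016 and 1127 normalized counts in Kmt2a KO libraries and 206, 133 and 124 in WT libraries. Anxa8, an annexin that binds membranes when calcium is present, showed the widest gap of these genes, with 3494, 3049.9 and 3190.1 against 142, 44.1 and 187, a log2 ratio of 4.71. Its WT libraries differed more than 4-fold among themselves. Cd300lg, a receptor of the CD300 family, had 508, 707 and 546 in Kmt2a KO libraries and 121, 117 and 91.8 in WT libraries. Tmprss4, a serine protease anchored in the membrane, had 828, 766 and 746 in Kmt2a KO libraries and 249, 271 and 289 in WT libraries.

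**Figure D2:**
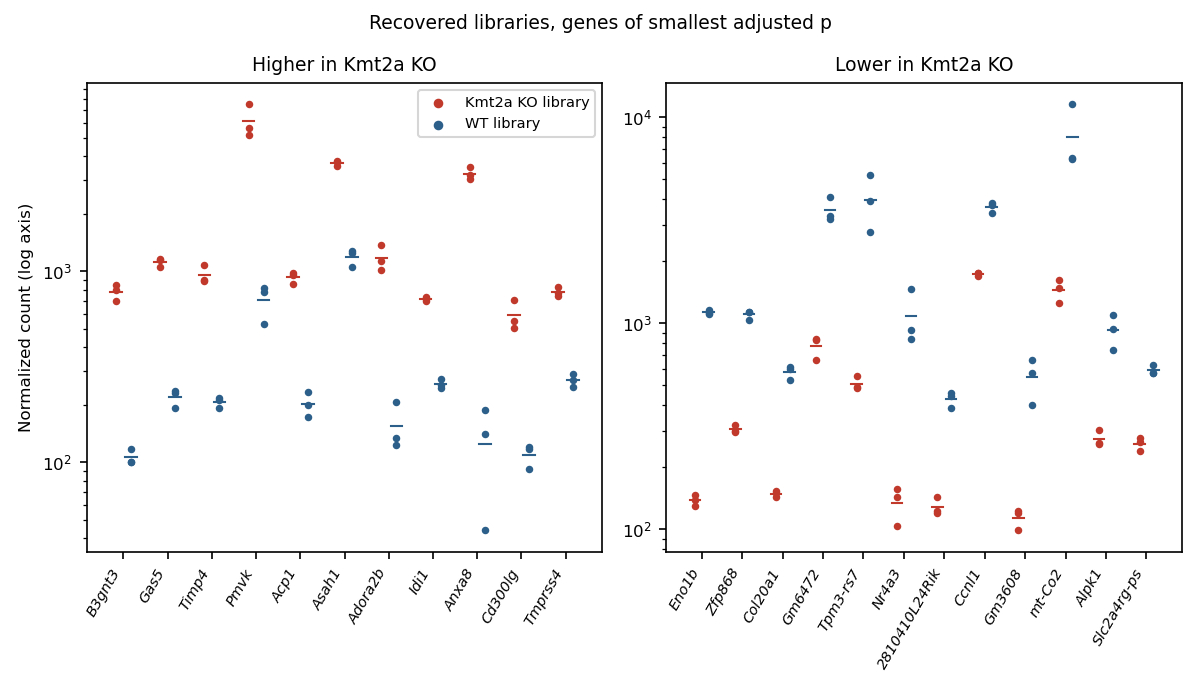
Normalized counts (log axis) in each recovered library of the higher and lower genes with the smallest adjusted p among genes with both means of at least 100; points are libraries (red Kmt2a KO, blue WT, n = 3 each) and bars their means. No gene shown has overlapping groups, and Anxa8 has the widest gap of the higher genes.

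The genes that fell with the smallest adjusted p were in good part gene copies and pseudogenes. Eno1b, a copy of the enolase gene Eno1, had 147, 129 and 139 normalized counts in Kmt2a KO libraries, against 1125, 1154 and 1114 in WT libraries, and an adjusted p of 1.87e-98 in the authors' deposited table, the smallest among these genes. Eno1, the enzyme of glycolysis itself, was higher in Kmt2a KO, with 6236, 4448 and 4867 against 2234, 2176 and 2149.8. Eno1b thus made up 2.30% to 2.83% of the summed counts of both genes in Kmt2a KO libraries and 33.5% to 34.7% in WT libraries, with almost no spread within a group. Tpm3-rs7, a copy of the tropomyosin gene Tpm3, had 488, 556 and 483 in Kmt2a KO libraries and 5218, 2784 and 3936 in WT libraries. Tpm3 had 8992, 8686 and 8376 in Kmt2a KO libraries and 2615, 6399 and 2602 in WT libraries, a log2 ratio of 1.17, and the copy made up 5.15% to 6.02% of the summed counts in Kmt2a KO libraries and 30.3% to 66.6% in WT libraries. With copy and parent gene summed, the log2 ratio was 0.68 for enolase and 0.23 for tropomyosin. Reads that match a copy and its parent gene can be counted for either, so single values of such pairs are uncertain, and the part of read assignment in these shares was not tested. Eno1 belongs to the list of glycolysis genes, and Tpm3 was added after its values were seen.

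Gm6472, a transcribed processed pseudogene, had 834, 829 and 666 normalized counts in Kmt2a KO libraries and 3221, 3304 and 4078 in WT libraries. Gm3608 had 122, 98.8 and 120.4 against 664, 402 and 574, Slc2a4rg-ps had 264, 277 and 239.9 against 627, 573 and 573, and the processed transcript 2810410L24Rik had 122, 143 and 119 against 459, 388 and 442. These 4 noncoding or pseudogene entries fell by between 1.18 and 2.26 on the log2 scale, and none overlapped between groups.

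Protein-coding genes among the 12 lower ones included regulators. Zfp868, a zinc finger protein gene, had 301, 320.0 and 298 normalized counts in Kmt2a KO libraries and 1136, 1043 and 1136 in WT libraries. Nr4a3, a nuclear receptor gene induced within minutes to hours of a stimulus, had 156, 104 and 144 against 838, 932 and 1465. Ccnl1, a cyclin tied to RNA splicing, had 1755, 1763 and 1687 against 3749, 3839 and 3412, the smallest change of the group with a log2 ratio of −1.08 and among the narrowest ranges. Alpk1, a kinase that senses a bacterial sugar, had 259, 304 and 262 in Kmt2a KO libraries and 1094, 742 and 934 in WT libraries, and the collagen gene Col20a1 had 143, 150.4 and 153 against 528, 601 and 615. The mitochondrial gene mt-Co2, a subunit of cytochrome c oxidase, had 1491, 1629.9 and 1252 in Kmt2a KO libraries and 6248, 6359 and 11548 in WT libraries, where library c stood well above the others.

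The most abundant transcripts moved in both directions. Scgb1a1 was lower by a log2 ratio of −1.68, and so was Cbr2 (−0.93), a carbonyl reductase of club cells. Of the 10 genes with the largest mean, 6 were genes of the mitochondrial genome, each lower, with log2 ratios from −1.64 for mt-Nd1 to −1.32 for mt-Nd5. Lyz2, the lysozyme of macrophages and alveolar type 2 cells, had a mean of 192655 in Kmt2a KO and 36082 in WT in the authors' deposited table, and its log2 ratio of 2.42 was close to that of Sftpa1 (2.42). Summed over the mitochondrial genes with a row, the deposited means came to 535312 in Kmt2a KO and 1459186 in WT in the authors' deposited table. Means above 10000 were not split into libraries, so the spread of these genes is not given. In bulk tissue, a lower level in each cell and fewer cells of a type cannot be told apart, and this holds for every result below.

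Genes of the Hox and Meis list with a row were lower in Kmt2a KO, with a single exception. Here and below, the number of list genes with a row is to be read against the 18.3% of all tested genes that have one, and genes without a row are not known to have changed. Of 46 genes of the list, 10 (21.7%) had a row, near the 18.3% of all genes tested. Of these 10, 9 were lower and 1 higher, with a median log2 ratio of −1.04, against 0.32 over all genes of the table. Hoxa2 had 22.1, 24.5 and 17.7 normalized counts in Kmt2a KO libraries and 111, 136 and 73.5 in WT libraries. Hoxa3 had 104, 131 and 126 against 399.9, 465 and 296. Hoxa5, the Hox gene best known for lung defects when it is lost in mice, had 239.8, 295 and 261 against 851, 1434 and 522. In these 3 neighbours of the same cluster, the Kmt2a KO libraries lay close together and WT library b was the highest and library c the lowest. Hoxb4 had 371, 363 and 363 against 773, 833 and 504, and Hoxb7 had 26.4, 40.2 and 34.5 against 91.6, 89.3 and 52.6.

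Hoxa4 had 44.2, 78.7 and 53.2 normalized counts in Kmt2a KO libraries and 149, 169.7 and 68.6 in WT libraries, and Meis1 had 577, 611 and 765 against 1206, 1489 and 763. In both, the highest Kmt2a KO library passed the lowest WT library. Meis2 had 208, 291 and 256 against 398, 689 and 335, without overlap. Pbx3, a partner of Hox and Meis proteins on DNA, had 319, 290.3 and 282 against 396, 409 and 386, the smallest change of the list with a log2 ratio of −0.42. Pbx4 was the gene that rose, with 78.2, 80.4 and 92.4 against 21.9, 20.9 and 55.1, and its log2 ratio of 1.36 was 1.97 without WT library c. As the authors' deposited table gives it, the adjusted p ran from 7.1e-10 for Hoxa3 and 1.73e-08 for Hoxa2 through 2.57e-05 for Hoxa5 to 0.027 for Meis1 and 0.0422 for Hoxa4. Leaving out single libraries kept the median of the list between −1.28 and −0.85.

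Of 21 genes of the list of MLL and COMPASS complexes, which hold the enzymes, WDR5-type core subunits and menin, 1 (4.76%) had a row, against 18.3% of all genes tested. It was Ncoa6, a coactivator found in the MLL3 and MLL4 complexes, with 1321, 1223 and 1488 normalized counts in Kmt2a KO libraries and 1058, 973 and 1026 in WT libraries and an adjusted p of 0.0286 in the authors' deposited table. Of 24 genes of the super elongation complex, DOT1L and other MLL fusion partners, 8 had a row, 5 higher and 3 lower. Aff1, the most frequent fusion partner of MLL in leukemia, had 3381, 3261 and 4123 in Kmt2a KO libraries and 2204, 2114 and 1654 in WT libraries. Mllt1, a reader protein of the same elongation complex, had 1162, 965 and 1269 against 674, 754 and 770.1, and Mllt11 had 202, 195 and 193 against 306, 324 and 342. Foxo3, a forkhead factor and rare fusion partner, overlapped between groups, with 2275, 3297 and 3609 against 2289, 1815 and 1344.

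Polycomb proteins keep genes silent and act against MLL-type enzymes at Hox clusters. Of 30 genes of this list, 4 (13.3%) had a row, under the 18.3% of all genes tested. Cbx6, a Polycomb reader of methylated histone, had 8960.0, 8117 and 8599 normalized counts in Kmt2a KO libraries and 4436, 3609 and 4079 in WT libraries, a log2 ratio of 1.08, and its relative Cbx7 had 3572, 3533 and 3673 against 2659, 2229.7 and 1869. Phf1 and Bmi1 were lower, with log2 ratios of −0.44 and −0.32. Of 36 other methyltransferases and demethylases of histones, 5 (13.9%) had a row, also under that share, 2 higher and 3 lower. Ash1l, a further methyltransferase that works against Polycomb, had 2884, 2475 and 3585 in Kmt2a KO libraries and 1920.1, 2111 and 2071 in WT libraries.

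**Figure D3:**
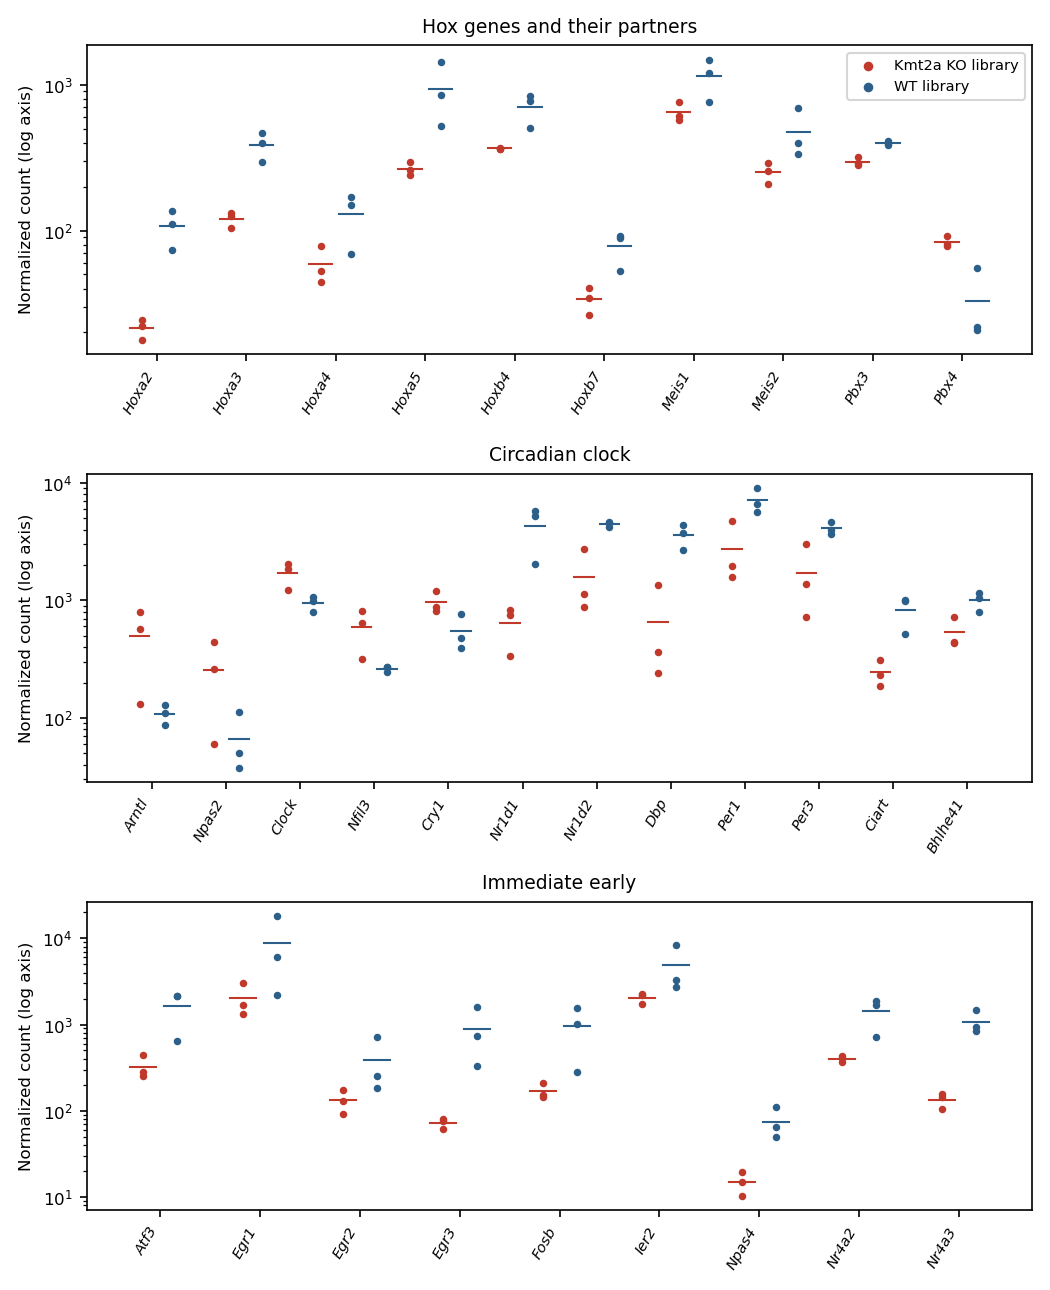
Normalized counts (log axis) in each recovered library for genes of the Hox and Meis, circadian clock and immediate early lists; points are libraries (red Kmt2a KO, blue WT, n = 3 each) and bars their means, for genes with recovered reads in both groups (Tef, Btg2 and Nr4a1 are not drawn). Kmt2a KO libraries are spread widely in the clock genes and WT libraries in the immediate early genes, where library b is often the highest.

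Immediate early genes, which encode transcription factors switched on within minutes of growth signals, stress or tissue handling, were lower wherever they had a row. Of 24 genes of the list, 11 had a row and these 11 were lower, with a median log2 ratio of −2.33. Egr3 had 79.1, 76.9 and 60.7 normalized counts in Kmt2a KO libraries and 331, 1601 and 735 in WT libraries. Fosb, a partner of Jun in the AP-1 factor, had 212, 144 and 154 against 279, 1567 and 1012. Atf3, a factor induced by stress, had 441, 253 and 279 against 648, 2158 and 2172, and the nuclear receptor gene Nr4a2 had 367, 428 and 411 against 717, 1682 and 1865. In each of these genes the Kmt2a KO libraries lay closer together than the WT libraries, of which library a was the lowest.

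Summed over the 9 members with recovered reads, the level was 4205 to 6468 normalized counts in Kmt2a KO libraries, against 7984 in WT library a, 17034 in library c and 35593 in library b. Egr1 overlapped between groups, with 1707, 3032 and 1338 in Kmt2a KO libraries and 2193, 18407 and 6096 in WT libraries, and its log2 ratio of −2.14 became −1.03 without WT library b. Without that library the log2 ratio was −2.88 for Egr3, −0.72 for Egr2 and −0.56 for Ier2, which otherwise stood at −3.62, −1.54 and −1.23. Nr4a1 had 1654, 1973 and 1052 normalized counts in Kmt2a KO libraries and a mean of 15554 in WT in the authors' deposited table, with an adjusted p of 7.75e-09. The median of the list stayed between −2.60 and −1.93 when single libraries were left out. These genes also respond to how fast tissue is taken and cooled, of which the labels say nothing; its part in the difference was not tested.

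Heat shock genes, whose products refold damaged proteins, were mostly lower where they had a row. Of 22 genes, 8 had a row, 7 lower and 1 higher, with a median log2 ratio of −0.73. Hspa1b had 847, 352 and 1015 normalized counts in Kmt2a KO libraries and 3344, 2628 and 3807 in WT libraries, and its near-identical neighbour Hspa1a, with which it shares reads, had 424, 254 and 540.4 against 1485, 1122 and 2292. Dnajb4, a helper of these chaperones, had 1492, 1554 and 1702 against 2859, 2506 and 3325, and Dnajb1 had 1502, 1199 and 1966 against 2716, 2379 and 3099.8. Hspb8, a small heat shock protein, was the member that rose, with 1736, 1662 and 2085 against 1383, 875 and 846. Kmt2a KO library b was the lowest in Hspa1a, Hspa1b and Dnajb1.

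Circadian clock genes went both ways. The clock is a loop in which ARNTL (BMAL1) with CLOCK or NPAS2 switches on the Per, Cry, Nr1d and Dbp genes through E-box sequences, and NR1D1 and NR1D2 in turn silence Arntl and Nfil3 through response elements that hold a nuclear receptor half-site. Of 19 clock genes, 13 had a row. All 8 that fell (Nr1d1, Nr1d2, Dbp, Tef, Per1, Per3, Ciart and Bhlhe41) are known as targets of the ARNTL arm, and of the 5 that rose (Arntl, Npas2, Nfil3, Clock and Cry1) most are known targets of the NR1D arm, while Cry1 is also a target of the ARNTL arm.

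Among the genes that fell, Nr1d1 had 757, 833 and 337 normalized counts in Kmt2a KO libraries and 5189.8, 5720.3 and 2031 in WT libraries. Dbp, a transcription factor gene with one of the strongest daily swings, had 363, 1346 and 242 against 3764, 4354 and 2660.3. Per1 had 1583, 4752 and 1944 against 6661, 9116 and 5611, Per3 had 728, 2991 and 1389 against 3949, 3669 and 4658, and Ciart, a repressor of the loop, had 189, 311 and 233 against 999.6, 979 and 518. In Dbp, Per1, Per3, Ciart, Nr1d1 and Nr1d2, Kmt2a KO library b was the highest of its group, and in Dbp, Nr1d2, Per1 and Per3 it stood far above the other Kmt2a KO libraries.

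Among the genes that rose, Arntl had 790.0, 132 and 573 normalized counts in Kmt2a KO libraries and 109, 87.1 and 129.8 in WT libraries. Npas2 had 445, 60.3 and 263 against 37.5, 50.7 and 111, Nfil3 had 809.6, 319 and 639 against 269.7, 271 and 246, and Clock had 1849.7, 1218 and 2044 against 981, 1076 and 789.6. Here Kmt2a KO library b was the lowest of its group in each gene. It lay within the WT range in Npas2 and next to the highest WT library in Arntl, at 132 against 129.8. Without Kmt2a KO library b, the log2 ratio of Dbp was −3.57 in place of −2.47, that of Nr1d2 −2.16 in place of −1.50, that of Per1 −2.02 in place of −1.37 and that of Per3 −1.95 in place of −1.26. The log2 ratio of Npas2, 1.94, was 1.28 without Kmt2a KO library a and 2.54 without WT library c. The adjusted p given in the authors' deposited table was 1.79e-07 for Nr1d1, 3.24e-06 for Ciart, 0.000386 for Dbp, 0.00142 for Arntl and 0.0279 for Npas2. The labels give no hour of sampling, and its part in these differences was not tested.

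The promoter windows of 4 clock genes, from RefSeq on GRCm38, run from 250 bases before to 50 bases after the start of transcription, 5′ to 3′ along the gene. Ciart and Per1 are among the genes that fell, and Arntl and Nfil3 among those that rose. Each of the 4 windows holds the motif marked in it, which other clock genes of the same direction lack. These windows therefore do not stand for all genes of their direction. Capitals mark CACGTG, the E-box letters, in Ciart (chr3:95882179-95882478, minus strand) and Per1 (chr11:69098699-69098998, plus strand), and AGGTCA or its reverse complement, the nuclear receptor half-site, in Arntl (chr7:113207261-113207560, plus strand) and Nfil3 (chr13:52980990-52981289, minus strand).
Ciart: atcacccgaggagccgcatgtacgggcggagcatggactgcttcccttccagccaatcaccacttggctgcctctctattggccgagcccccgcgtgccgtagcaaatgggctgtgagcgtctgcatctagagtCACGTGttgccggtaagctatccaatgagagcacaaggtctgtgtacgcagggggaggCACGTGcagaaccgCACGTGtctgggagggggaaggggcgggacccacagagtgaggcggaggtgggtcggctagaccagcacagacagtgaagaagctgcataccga
Per1: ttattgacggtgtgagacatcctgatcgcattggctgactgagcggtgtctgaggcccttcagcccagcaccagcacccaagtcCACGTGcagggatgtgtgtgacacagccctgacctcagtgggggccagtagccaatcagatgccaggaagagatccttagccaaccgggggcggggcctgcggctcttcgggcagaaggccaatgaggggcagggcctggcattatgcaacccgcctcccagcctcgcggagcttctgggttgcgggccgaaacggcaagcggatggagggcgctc
Arntl: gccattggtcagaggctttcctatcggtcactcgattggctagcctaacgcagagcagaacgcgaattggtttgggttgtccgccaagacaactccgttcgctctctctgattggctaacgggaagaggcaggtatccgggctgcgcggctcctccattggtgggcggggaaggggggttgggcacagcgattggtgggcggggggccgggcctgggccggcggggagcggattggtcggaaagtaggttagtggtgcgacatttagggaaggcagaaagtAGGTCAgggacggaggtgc
Nfil3: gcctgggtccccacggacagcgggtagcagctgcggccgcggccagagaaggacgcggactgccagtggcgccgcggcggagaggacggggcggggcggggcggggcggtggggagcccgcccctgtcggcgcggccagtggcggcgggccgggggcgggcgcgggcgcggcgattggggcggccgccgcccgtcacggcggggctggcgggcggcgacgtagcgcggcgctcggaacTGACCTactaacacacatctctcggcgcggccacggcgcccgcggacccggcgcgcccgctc
The Ciart window holds CACGTG at 3 places, starting 116, 58 and 44 bases before the start of transcription, and the Per1 window holds it once, 166 bases before. AGGTCA begins 31 bases after the first transcribed base in Arntl, and its reverse complement begins 12 bases before the start in Nfil3. Searched on both strands in every window a gene has, CACGTG was found in 4 of the 8 clock genes that fell (Bhlhe41, Ciart, Per1 and Tef) and in 1 of the 5 that rose (Cry1), and in 8.09% of all 27025 genes with a window. AGGTCA was found in 2 of the 8 that fell (Nr1d2 and Per1) and in 3 of the 5 that rose (Arntl, Clock and Nfil3), and in 18.1% of all genes. The letters of both motifs can share bases where they adjoin, and the match of AGGTCA in Per1 is not in capitals above. A match of letters is a description of the window and does not show that a protein binds there.

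**Figure D4:**
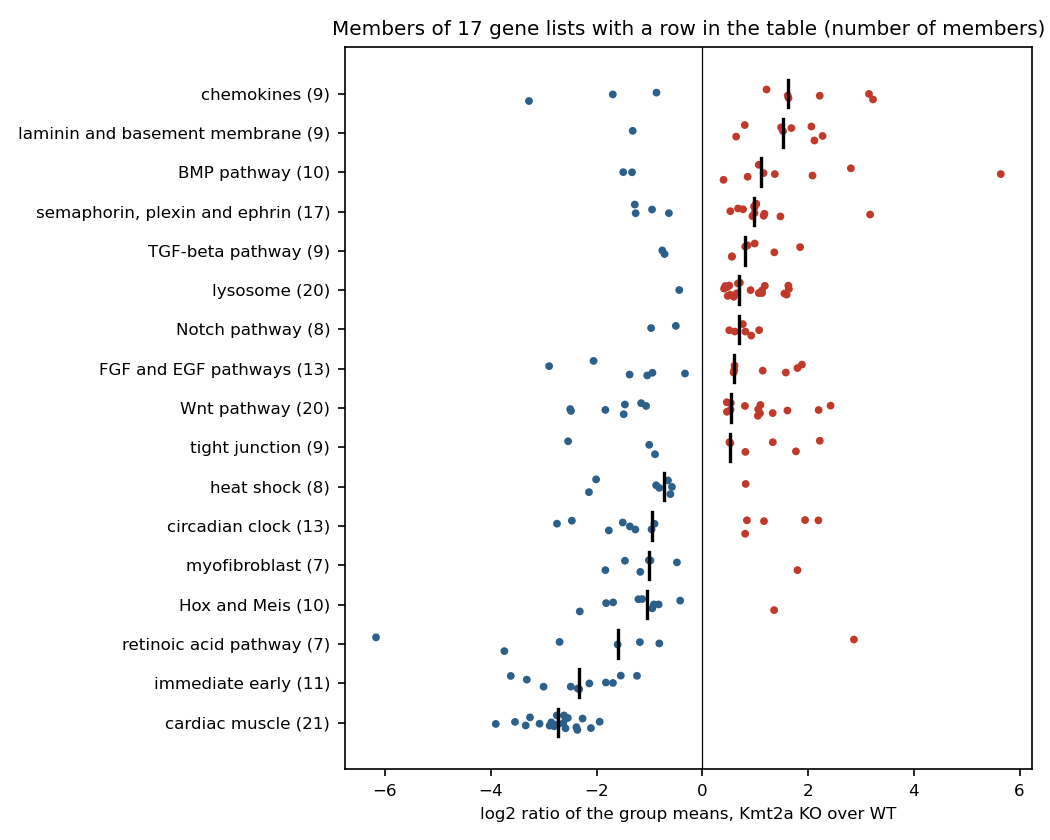
Each point is a gene of a list with a row in the table, placed by its log2 ratio of the group means (Kmt2a KO over WT); rows are 17 lists ordered by their median (black bar), red points are higher and blue points lower in Kmt2a KO. The lists drawn are a choice from 68, and their medians run from 1.62 for chemokines to −2.72 for cardiac muscle. Lists not drawn lie beyond both, such as hepatocyte plasma protein at 5.35 and strain-dependent at −3.06.

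The basement membrane, the sheet of laminin and collagen IV on which epithelial and endothelial cells sit, is built from genes that were mostly higher in Kmt2a KO where they had a row. Of 27 genes of the list, 9 had a row, 8 higher and 1 lower, with a median log2 ratio of 1.53. Laminin chains of epithelium rose together. Lamb3 had 3977, 3481 and 3927 normalized counts in Kmt2a KO libraries and 1287, 1035 and 295 in WT libraries, and Lama3 had 4084, 2372 and 4514 against 903, 1088 and 632. WT library c was the lowest in both. Col4a3, a collagen IV chain of the alveolar wall, had 2766, 2466 and 3413 against 1075, 1163 and 451. Frem1, a protein of embryonic basement membranes, was the gene that fell, with a log2 ratio of −1.32.

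Integrins include receptors for this sheet. Of 26 integrin genes, 4 (15.4%) had a row, under the 18.3% of all genes tested, 3 higher and 1 lower. Itgb6, the epithelial chain that frees TGF-beta from its latent form, had 1126, 700.4 and 572 normalized counts in Kmt2a KO libraries and 378, 151 and 136 in WT libraries, a log2 ratio of 1.85 that was 2.48 without WT library a. Itga7, a laminin receptor chain, had 2740.0, 1654 and 1755 against 674, 637 and 941. Itgav rose by a log2 ratio of 0.56 and Itga5, the fibronectin receptor chain, fell by 0.51 on the log2 scale. Of 25 tight junction genes, 9 had a row, 6 higher and 3 lower. The claudin genes diverged: Cldn2, which forms pores for cations, had 154, 125 and 93.3 in Kmt2a KO libraries and 27.1, 22 and 30.6 in WT libraries, and Cldn4 had 1742, 809 and 815 against 276, 401 and 657. Cldn10, in contrast, had 783, 669.8 and 782 in Kmt2a KO libraries and 932, 1131 and 2417 in WT libraries, where library c was the highest.

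Genes of stratified epithelium, which healthy alveoli hardly express, were mostly at few reads and, where they had a row, mostly higher in Kmt2a KO. Of 20 genes of the basal and squamous list, 6 had a row, 5 higher and 1 lower. Ivl, a protein of the cornified envelope, had 80, 14 and 73 reads in Kmt2a KO libraries and 0 reads in each WT library. Sprr1a, of the same envelope, had 113, 21 and 28 reads in Kmt2a KO libraries and 1 read in each WT library. Krt14, the keratin of basal cells, had 49, 13 and 14 reads in Kmt2a KO libraries and 2, 0 and 4 reads in WT libraries. Krt10, a keratin of outer layers, was lower, with 122, 113 and 96.1 normalized counts against 191, 169 and 180.0. With so few reads the size of these changes is poorly known.

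Transcription factors of lung development went both ways. Of 34 genes, 8 had a row, 3 higher and 5 lower. Nkx2-1, the master regulator of lung epithelium, had 5338, 4978 and 5169 normalized counts in Kmt2a KO libraries and 6779.9, 7374 and 7439 in WT libraries, a small but even fall. Cebpa, which acts in alveolar type 2 cells, had 10303, 7175 and 8811 against 4473, 3277 and 4623. Etv5, an effector of FGF signals in the same cells, had 4835, 5085 and 4141 against 2201, 1918 and 583, and Sox11 had 176, 209.9 and 414 against 39.6, 72.7 and 19.6. Irx2, a homeobox factor of distal epithelium, had 999, 859.5 and 996 in Kmt2a KO libraries and 1989, 1903 and 2452 in WT libraries, and Foxp2 had 62.9, 137 and 87.7 against 234, 179 and 379.5.

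In the Wnt pathway, the Frizzled receptor genes with a row rose, while ligands and secreted inhibitors with a row went both ways. The Frizzled genes were singled out after their values were seen. Of 54 Wnt genes, 20 had a row, 13 higher and 7 lower. All 5 Frizzled receptor genes with a row (Fzd1, Fzd2, Fzd5, Fzd6 and Fzd7) rose, with log2 ratios from 0.47 for Fzd7 to 1.33 for Fzd2, and so did the co-receptor Lrp5 (1.06). Wnt7a, a ligand of alveolar type 1 cells, had 644, 470.4 and 630.0 normalized counts in Kmt2a KO libraries and 184, 152 and 42.8 in WT libraries. Wnt10b, another ligand, had 33.2, 94.4 and 40.1 against 302, 471 and 165, a log2 ratio of −2.48 that was −3.09 without Kmt2a KO library b. Of the secreted inhibitors, Wif1 had 46.8, 74.3 and 57.9 in Kmt2a KO libraries and 205, 367 and 438 in WT libraries, while Sfrp2 had 199.8, 281 and 136 against 30.2, 33.1 and 51.4. The R-spondin receptors Lgr5 and Lgr6 and the ligand Rspo3, which strengthen Wnt signals, were lower, with log2 ratios of −1.83, −1.46 and −1.06.

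In the BMP pathway, 10 of 38 genes had a row, 8 higher and 2 lower, with a median log2 ratio of 1.11. Ligand and inhibitors rose side by side. Bmp2 had 491, 375 and 513 normalized counts in Kmt2a KO libraries and 181, 177 and 174 in WT libraries. Fst, which traps activin and BMPs, had 397, 271 and 634 against 95.8, 73.8 and 15.9, and Nog, the inhibitor noggin, had 42.5, 50.7 and 31.7 against 9.37, 17.6 and 2.45, a log2 ratio of 2.08 that was 2.82 without WT library b. Gdf6, a ligand of the family, had 220, 88 and 62 reads in Kmt2a KO libraries and 5, 0 and 1 reads in WT libraries, and its log2 ratio of 5.65 ran from 4.97 without Kmt2a KO library a to 7.45 without WT library a. Gdf10 fell, with 208, 321 and 152 against 588, 422 and 909.6.

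Of 28 TGF-beta genes, 9 had a row, 7 higher and 2 lower. The receptor Tgfbr2 had 8525, 7483 and 8918 normalized counts in Kmt2a KO libraries and 4277, 4806 and 3455 in WT libraries, and Ltbp2, a matrix protein related to those that store the ligand, had 3209, 3917 and 3578 against 1728, 1236 and 1196. Tgfb2 rose and Tgfb3 fell among the ligands, with log2 ratios of 0.81 and −0.76. Of 27 Notch genes, 8 had a row, 6 higher and 2 lower. Notch3, the receptor of pericytes and smooth muscle, had 3675, 4510.2 and 5429 in Kmt2a KO libraries and 2300.2, 2205 and 1953 in WT libraries, and Rbpj, the factor through which Notch acts on DNA, had 1653, 1401 and 1572 against 934, 616 and 1077. Hes1, a target gene of this pathway, went the other way, with 1166, 1309 and 1445 against 2006, 2726 and 2932. Hey2, of the same list, was higher, with a log2 ratio of 0.77.

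Of 36 FGF and EGF genes, 13 had a row, 7 higher and 6 lower. The EGF receptor ligand Areg had 385, 185 and 161 normalized counts in Kmt2a KO libraries and 64.6, 87.1 and 46.5 in WT libraries, and Fgf18 had 190.5, 143 and 203 against 66.6, 49.6 and 38. Erbb4, a receptor of the family, had 6.8, 14.9 and 11.2 against 135, 18.7 and 90.6, and Fgfr4 had 249 to 395 against 1757, 2128 and 424, where WT library c stood near the Kmt2a KO range. All 3 Hedgehog genes with a row, of 15, were lower. The ligand Shh had 426, 319 and 413 in Kmt2a KO libraries and 624, 488 and 1143 in WT libraries, and its inhibitor Hhip had 839, 923 and 890.4 against 1111, 1131 and 1454.

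Guidance molecules, first known from axons and active in lung vessels and airways, had 17 of 54 genes in the table, 13 higher and 4 lower. Plxnb3, a receptor of semaphorins, had 423, 269 and 314 normalized counts in Kmt2a KO libraries and 42.7, 20.9 and 47.7 in WT libraries. The ligand Sema3a had 1244, 1435 and 1440.1 against 669, 471 and 339, Sema3b had 2351, 2723 and 2897 against 1478, 1416 and 1125 and Sema3c had 8317, 9152 and 8236 against 5047, 3863 and 2576. Slit2 was lower, with 315, 424 and 257 against 884, 975 and 551, and so was Sema6c, with 166, 139.9 and 188 against 419.6, 343 and 419.

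Genes of retinoic acid handling, a vitamin A signal that Hox genes answer to, were mostly lower where they had a row. Of 22 genes, 7 had a row, 6 lower and 1 higher, with a median log2 ratio of −1.60. Aldh1a7, an aldehyde dehydrogenase close in sequence to Aldh1a1, had 1838, 2143 and 2049 normalized counts in Kmt2a KO libraries and 4952, 4343 and 8987 in WT libraries. Rbp4, the retinol carrier of blood, had 571, 844 and 621 against 1274, 1165 and 2171. Rbp7, a retinol-binding protein of endothelium, had 4, 2 and 0 reads in Kmt2a KO libraries and 193, 82 and 65 reads in WT libraries. Rbp2, its intestinal relative, was the gene that rose, with 119, 104 and 95.2 against 6.25, 5.51 and 31.8, a log2 ratio of 2.87 that was 4.17 without WT library c.

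Most mesenchymal markers with a row were lower. All 4 alveolar fibroblast genes with a row (of 14), all 3 adventitial fibroblast genes (of 13) and 6 of 7 myofibroblast genes (of 10) fell. Tcf21, a factor of lipid-holding fibroblasts, had 890.4, 1967 and 1381 normalized counts in Kmt2a KO libraries and 3494, 4766 and 1615 in WT libraries, with overlap through WT library c. Igfbp4, a carrier of insulin-like growth factors, had 3006, 2956 and 3152 against 5169, 6818 and 5289. Among the myofibroblast genes, Aspn had 499, 402 and 355 against 704, 652 and 1173, Lgr6 had 113, 157 and 146 against 408, 273 and 465, and Fgf18 was the gene that rose.

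Endothelial markers went both ways. All 3 general capillary genes with a row, of 10, rose. Cxcl12, a chemokine that holds leukocytes and guides vessels, had 7579, 6256 and 5458 normalized counts in Kmt2a KO libraries and 2193, 1752 and 2282 in WT libraries. Lpl, the lipase anchored to the capillary wall, had 6353, 6674 and 7546 against 4488, 1524 and 1789, a log2 ratio of 1.40 that was 2.05 without WT library a; Lpl is also a gene of fat cells. Of 3 aerocyte genes with a row, the peptide gene Apln and the endothelin receptor gene Ednrb were lower, Apln with 261, 273 and 374 against 1085, 1305 and 584 and Ednrb with 1063, 1663 and 1811 against 2981, 3087 and 1820.5, and Emp2 was higher, with a log2 ratio of 1.33. Slc6a2, the noradrenaline transporter of lung veins, had 1997, 2008 and 3016 in Kmt2a KO libraries and 679, 689 and 304 in WT libraries, while Nr2f2, the other vein gene with a row (of 10), fell, with 1595, 1733 and 1873 against 2935, 2586 and 2212. Of 11 artery genes, 2 (18.2%) had a row, Bmx at −1.67 and Vegfc at 0.68 on the log2 scale. Of 16 pan-endothelial genes, 1 (6.25%) had a row, under the 18.3% of all genes tested. It was Egfl7, with a log2 ratio of −0.93.

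Lysosome genes with a row were higher but for 1. Of 37 genes, 20 had a row, 19 higher and 1 lower, with a median log2 ratio of 0.69 that stayed between 0.63 and 0.78 when single libraries were left out. Ctsd, a main protease of the lysosome, had 9929, 8369.9 and 8275 normalized counts in Kmt2a KO libraries and 4870.1, 3638 and 3635 in WT libraries. Ctsk, a protease of collagen, had 2871, 2081 and 1680.0 against 681, 538 and 911, and Ctsc, which activates proteases of leukocyte granules, had 9094, 6844 and 8127 against 3383, 3000.2 and 1818. Npc1, which exports cholesterol from the lysosome, had 2397, 1783 and 2429 in Kmt2a KO libraries and 1328, 1201 and 978 in WT libraries. Tcirg1, a subunit of the proton pump, was the exception, with a log2 ratio of −0.44. The summed level of the 16 members with recovered reads was 52230 to 60659 in Kmt2a KO libraries and 27044 to 35240 in WT libraries. Macrophages are rich in several of these transcripts, and the lysozyme gene Lyz2 rose alongside; the part of cell numbers was not tested.

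Chemokine genes with a row were mixed. Of 34 genes, 9 had a row, 6 higher and 3 lower. Cxcl5, a neutrophil attractant made by alveolar epithelium, had 147, 20.1 and 243 normalized counts in Kmt2a KO libraries and 12.5, 16.5 and 14.7 in WT libraries. Cxcl1, of the same group, had 137, 47.2 and 82.1 against 35.4, 33.1 and 18.4. In both genes Kmt2a KO library b was close to the WT range. Ccl6, made by macrophages, had 7214, 4591 and 3508 against 2036, 969 and 278. The log2 ratio was 3.23 for Cxcl5, and 2.52 without Kmt2a KO library c, and 2.22 for Ccl6, and 3.03 without WT library a. Ccl20 and Ccl21a were lower, with overlap in both genes: Ccl20 had 5.1, 2.62 and 16.8 in Kmt2a KO libraries and 59.4, 3.31 and 175 in WT libraries, and its log2 ratio of −3.28 was −1.94 without WT library c and −4.36 without Kmt2a KO library c. Of 30 genes of the list of inflammatory cytokines and NF-kB, 3 (10%) had a row, 2 higher and 1 lower. That share was under the 18.3% of all genes tested. The alarmin gene Il33, released by injured epithelium, had 3768, 2305 and 3945 against 1260.0, 596 and 481. The adhesion gene Icam1 had 9582, 7945 and 9968 against 4339, 3763 and 1607. Il1a was the gene that fell, with a log2 ratio of −1.30.

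Of 17 neutrophil genes, 3 (17.6%) had a row, near the 18.3% of all genes tested. Ltf, which encodes the iron-binding lactoferrin, had 13273, 4032 and 7055 normalized counts in Kmt2a KO libraries and 711, 143 and 415 in WT libraries, a log2 ratio of 4.26 that was 4.86 without WT library a. Lcn2, another binder of bacterial iron carriers, had a mean of 14704 in Kmt2a KO and 746 in WT in the authors' deposited table. Both genes are also expressed in airway epithelium. Mpo, a peroxidase made by neutrophil precursors, was lower, at few reads in both groups. Of 24 T cell genes, 3 (12.5%) had a row, under the 18.3% of all genes tested, and these 3 were lower. The kinase gene Zap70 had 269.6, 257 and 246 in Kmt2a KO libraries and 342, 514 and 692 in WT libraries, and Lat, its substrate, had 361, 316 and 194 against 504, 639 and 508. No gene of the B cell, eosinophil or thymocyte lists had a row.

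Of 19 genes of plasma proteins made by hepatocytes, 5 had a row and these 5 were higher. Orm1 had 1039, 453 and 744 normalized counts in Kmt2a KO libraries and 23.9, 9.92 and 20.8 in WT libraries, and Orm2 had 142, 223 and 140.0 against 9.37, 4.41 and 12.2. Fgg, a fibrinogen chain, had 95.2, 171 and 78.4 against 4.17, 2.2 and 1.22. Cp, the copper carrier ceruloplasmin, was high throughout, with 10765, 7621 and 9755 against 4445, 3818 and 5695.

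Of 16 genes of senescence and cell cycle inhibition, 4 had a row, 3 higher and 1 lower. Cdkn2b, an inhibitor of cyclin kinases, had 1559.7, 1489 and 1577 normalized counts in Kmt2a KO libraries and 521, 352 and 263 in WT libraries. Cdkn1a, the p53 target p21, had 4424, 2081 and 4205 against 1468, 1478 and 1339, with library b the lowest of Kmt2a KO. Cdkn2c, a relative of Cdkn2b, fell, with 312, 323 and 231 against 645, 709.8 and 373. Of 21 p53 targets, 8 had a row, 5 higher and 3 lower; the 3 that fell (Btg2, Plk2 and Plk3) are also early-response genes. Of 36 genes of DNA repair and replication, 5 (13.9%) had a row, under the 18.3% of all genes tested, and these 5 were higher. Mcm6, a subunit of the replication helicase, had 623, 644 and 512 in Kmt2a KO libraries and 254, 225 and 211 in WT libraries, and the kinase gene Chek2 had 273, 209 and 315 against 104, 106 and 99.2. Of 27 genes of the unfolded protein response, 6 had a row, 5 higher and 1 lower, with Atf6 at 0.57 and Atf4 at −0.56 on the log2 scale.

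Smaller groups of lung cells and pathways had few genes in the table. All 3 mesothelial genes with a row, of 10, rose, among them the surface mucin gene Muc16, with 445, 421 and 286 normalized counts in Kmt2a KO libraries and 79.1, 5.51 and 149 in WT libraries. Of 25 ciliated cell genes, 2 (8%) had a row, under the 18.3% of all genes tested; both rose, and Mcidas, a switch for the formation of many cilia, had 157, 49.8 and 121 against 21.9, 27.6 and 47.7. All 3 platelet genes with a row, of 12, were lower, such as the collagen receptor gene Gp6, with 17, 18.4 and 25.2 against 82.3, 109 and 46.5. In the IGF pathway, 4 of the 5 genes with a row, of 20, rose, and Pappa, a protease that frees the growth factor from its carriers, had 281, 130.3 and 246 against 41.7, 47.4 and 71. Of 12 genes of MHC class II presentation, 3 had a row: H2-DMb1, with 1626, 1859 and 1122 in Kmt2a KO libraries and 839, 603 and 686 in WT libraries, rose, while its neighbour and close copy H2-DMb2, with 378, 239.6 and 124 against 753, 494 and 575, fell, and reads can be shared between them. Of 5 dendritic cell genes with a row, of 15, 2 were higher and 3 lower, the plasmacytoid cell receptor gene Siglech among those lower, at 19.6, 17.5 and 15.9 against 51, 74.9 and 33.1.

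Markers of other tissues that can be taken along when a lung is dissected differed between the groups. Of 25 cardiac muscle genes, 21 had a row, the highest share of any list, and all 21 were lower. Over the 19 members with recovered reads, their summed level was 4767, 6431 and 9335 normalized counts in Kmt2a KO libraries a to c. In WT libraries a to c it was 82556, 17212 and 40615. Of these 19 members, 13 did not overlap between groups, a smaller share than the 97.1% of all genes with recovered reads. None of these 19 was at 0 in any library. Tnnc1, a troponin chain, had 137, 146 and 233 in Kmt2a KO libraries and 2869, 701 and 1655 in WT libraries. Myl3, a myosin light chain, had 52.7, 11.4 and 56.9 against 955, 274 and 584. Myl4, another light chain, had a mean of 804 in Kmt2a KO and 7694 in WT in the authors' deposited table, a log2 ratio of −3.26. WT library a was the highest and library b the lowest, and the median log2 ratio of −2.72 lay between −3.11 and −2.02 when single libraries were left out. Heart-type muscle in pulmonary veins and heart tissue at the hilum both carry these transcripts, and their part in the difference was not tested.

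Most skeletal muscle, fat and blood markers with a row were also lower. All 5 genes of the skeletal muscle list with a row, of 18, fell (Ckm, Casq1, Tnnt1, Eno3 and Myh7). Ckm had 49.3, 50.7 and 111 normalized counts in Kmt2a KO libraries and 1051, 173 and 506 in WT libraries. Its log2 ratio of −3.03 was −2.27 without WT library a. Summed over these 5 genes, WT library a was the highest and library b the lowest, as in the cardiac muscle list. The part of heart muscle in these 5 genes was not tested. Of 6 adipocyte genes with a row, of 14, 5 were lower, and WT library a was the highest in each: Adipoq had 5.1, 14 and 13.1 against 305, 6.61 and 31.8, with overlap, and its log2 ratio of −3.42 was −0.84 without that library, while the median log2 ratio of the list of −2.68 became −0.83. Of 7 erythroid genes with a row, of 16, 6 were lower. The globin gene Hba-a2, which shares reads with Hba-a1, had 844, 664 and 245 in Kmt2a KO libraries and 4038, 10115 and 2838 in WT libraries, a log2 ratio of −3.28 that was −2.56 without WT library b. Of 6 genes of nerve and glia with a row, of 15, 4 were lower. Npy, a peptide of sympathetic nerves, had 5.95, 3.5 and 1.87 against 130.2, 207 and 104. The part of tissue sampling in the gene groups above was not tested.

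The 2 genes of the strain-dependent list with a row (of 3), chosen because inbred mouse strains differ in them, were both lower. Ifi202b had 1.7, 3.5 and 0.933 normalized counts in Kmt2a KO libraries and 111, 41.9 and 30.6 in WT libraries, a log2 ratio of −4.91 that ran from −4.15 without WT library a to −5.54 without Kmt2a KO library b. Wdfy1 had 615, 679 and 637 against 1348, 1374 and 1748. Ifi202b and Wdfy1 both lie on chromosome 1. The labels give no strain, and the part of genetic background in the differences was not tested.

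The annotated class of a gene went with the direction of its change. Of 3321 protein-coding genes, 1811 were higher (54.5%), against 50.5% of all genes of the table. Among 170 processed pseudogenes 24 (14.1%) were higher, among 126 lincRNAs 52 (41.3%), among 96 antisense RNAs 41 (42.7%) and among 60 processed transcripts 16 (26.7%). All 12 microRNA genes and 10 of 11 snoRNA genes were lower, with median log2 ratios of −2.37 and −1.71. The library kit keeps no strand, so reads of an antisense RNA and of the gene it overlaps cannot be told apart. As for the gene copies above, reads that match a pseudogene and its parent gene can be counted for either. The part of read assignment in these shares, also between microRNA or snoRNA genes and genes that host them, was not tested.

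Among protein-coding genes, length and level went with direction as well. Of 5 groups of near-equal number, the shortest genes, of 204 to 2215 bases, were higher in 42.3% of cases. The share was 51.9%, 54.9% and 58.0% in the next groups and 65.7% in the group of longest genes, from 7119 bases on. The median length was 4440 bases in the 1811 higher genes and 3551 in the 1510 lower ones. By level, 43.5% were higher in the lowest of 5 groups and 63.3% in the highest. The median GC content of the longest transcript was close in both directions, at 50.02% for higher and 51.18% for lower genes. Promoter windows were at hand for 75.8% of the protein-coding genes, under the 80% needed for a comparison of promoters between directions, which was therefore not made.

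**Figure D5:**
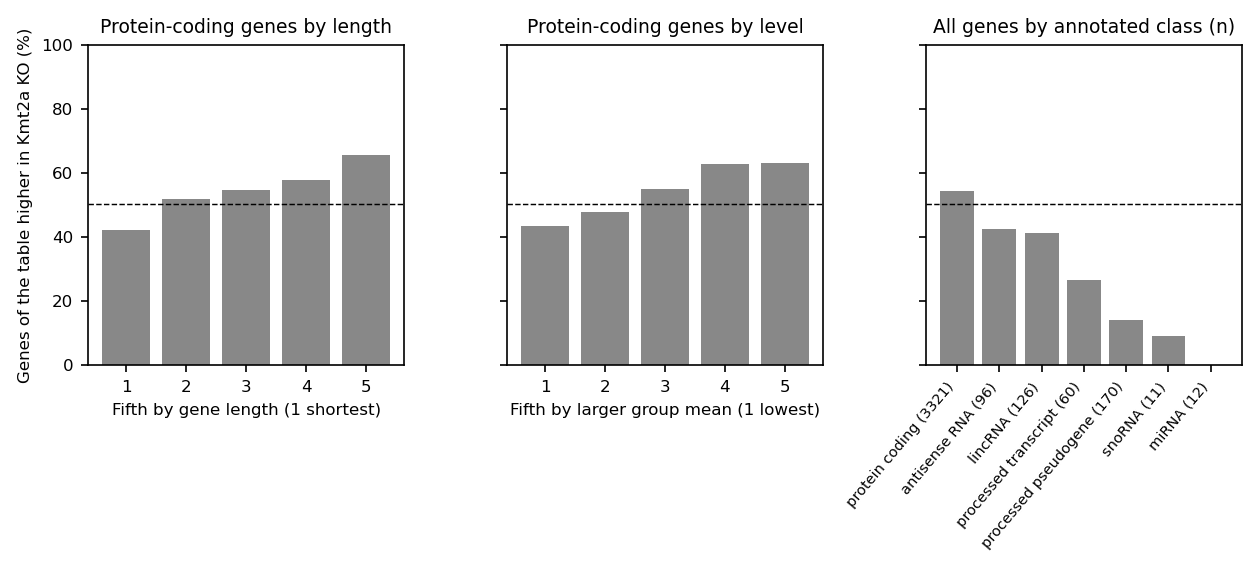
Share of genes of the table that were higher in Kmt2a KO (y axis, percent, from 0), for protein-coding genes in 5 near-equal groups by gene length and by the larger group mean, and for all genes by annotated class with the number of genes in brackets. The dashed line is the share over all genes of the table, 50.5%; the shares rise with length and level and fall to 0 for the 12 microRNA genes.

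On the nuclear chromosomes the share of higher genes ran from 42.9% on X to 57.6% on chromosome 4, with the mitochondrial genome apart, where all 23 genes with a row were lower. Of all annotated protein-coding genes, 10.2% on X and 19.8% on chromosome 8 had a row, the lowest and highest share of any nuclear chromosome other than Y.

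Around Kmt2a itself (chromosome 9, 44803355 to 44881296, minus strand, GENCODE annotation of GRCm38), changed genes were no denser than elsewhere. Within 5 Mb on either side, 16 of 124 protein-coding genes had a row (12.9%), against 15.1% of all annotated protein-coding genes. Of these 16, 8 were higher and 8 lower, and both of the 2 antisense RNA genes with a row were lower. Ttc36 lies 0.283 kb from Kmt2a, on the side of lower coordinates. It had 117, 84.8 and 96.1 normalized counts in Kmt2a KO libraries and 27.1, 34.2 and 56.3 in WT libraries. Mpzl2 and Mpzl3, adhesion genes 159 and 174 kb away that lie side by side, both rose, with 253, 219 and 257 against 111, 95.9 and 96.7 for Mpzl2 and 257, 205 and 179 against 139.5, 105 and 142 for Mpzl3. Tmprss4, 291 kb away, is described above. Upk2, 348 kb away on the other side, had 18.7, 21 and 8.4 against 32.3, 51.8 and 71. Usp28, a deubiquitinase gene 4104 kb away, had 253, 321 and 279 in Kmt2a KO libraries and 505, 478 and 530.1 in WT libraries.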

How the data were processed

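Libraries were made from lung RNA with a kit that keeps no strand, per the labels' protocols. Per the submitters' processing notes, the authors used HISAT2 2.0.5 with the builds GRCm38 and mm10, counted with featureCounts 1.5.0-p3, and ran DESeq2 1.16.1. The deposited table gives, per gene, a group mean of normalized counts (a signal: counts divided by a size factor, as the deposited values show) for each group. It also gives the authors' log2 fold change, and the p-value and adjusted p-value the authors deposited. Only genes with an adjusted p below 0.05 are in it, so absent genes are unknown and no gene was tested anew for the calls.

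Log2 ratios were taken between the deposited means, and genes at 0 in a group were set to 3 reads over the group. Whole reads per library were searched for in the 15 digits of means up to 10000, giving 3853 genes in Kmt2a KO and 3878 in WT, 3822 in both. The search was tested on simulated data. limma 3.58.1 (R 4.3.3) on log2 of recovered values + 1 was an alternative test, and other cutoffs, pseudocounts, scalings and left-out libraries were tried. Depth per library is known only over resolved genes, and counts cover counting error only.

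Named were the 12 genes per direction of smallest adjusted p with both means of at least 100 and recovered reads, the 10 most abundant, up to 4 members per list of largest change with a mean of at least 50, all Hox and Meis, MLL complex and strain-dependent members, and genes within 5 Mb of Kmt2a. Other named genes were chosen after their values were seen. Members and lists were chosen with earlier results of these data known. Promoters are from RefSeq (GRCm38), transcripts from GENCODE vM21. Some genes that the rule names are not reported here.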

Additional observations from a re-analysis of the deposited data

How the results depend on the processing

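At an adjusted p below 0.01 the deposited table held 1241 higher and 1191 lower genes. With a larger group mean of at least 100, 566 genes were at least 2-fold higher and 582 at least 2-fold lower. By limma on the recovered libraries, 1445 genes were called higher and 1264 lower, 701 and 724 of them by at least 2-fold. Of 3822 genes, 1113 were not called and 0 had the other sign. The limma fit drew on the very data that had put these genes in the deposited table. The limma signs could therefore hardly differ, and the count of 0 is no independent check. Leaving out single libraries gave 1998 to 1999 higher, 1957 to 1958 lower, 859 to 939 at least 2-fold higher and 1027 to 1129 at least 2-fold lower genes. The genes had been selected on these same libraries, so the counts of higher and lower genes could hardly change. List medians without single libraries come from genes selected in the same way. A group mean that was not split into libraries kept all 3 of them. The 134 genes not recovered in both groups could therefore move only in part or not at all, also inside the list medians. Setting the trimmed mean of all log2 ratios to 0 (it was −0.0084) changed 0 signs. With 10 added to both means, the log2 ratio was 3.11 for Spink5, 3.32 for Fgg, 3.26 for Orm2, 3.27 for Gdf6, −3.51 for Npy and Rbp7 and −2.57 for Ifi202b, and the median was 1.87 in place of 4.31 for the basal and squamous list and 3.26 in place of 5.35 for the hepatocyte plasma protein list. Without WT library a, the median of the hepatocyte plasma protein list was 4.34. With a larger mean of at least 100, the basal and squamous median was 0.09, and the share that was higher was 7.79% of processed pseudogenes in place of 14.1% and 30.4% of lincRNAs in place of 41.3%. Among genes changed at least 2-fold, 45.5% were higher. The cause of these shifts was not tested. No paired analysis was possible because the recovered libraries carry no replicate numbers.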
